A study of Mus musculus with 2 samples.

Results

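Keratins are the intermediate filament proteins of epithelial cells, and the 53 genes whose symbol is Krt followed by a number, with or without a letter, were followed through the skin of E13.5 mouse embryos, out of 32286 features counted. The genes were chosen by name alone. Single-cell libraries were made from dorsolateral flank skin of the mutant, which combined Axin2CreER, an inducible recombinase driven from a Wnt-responsive gene, with Rosa-lox-STOP-lox-SmoM2YFP, an allele kept off by a stop cassette until the recombinase removes it, and of littermate controls, whose title names the SmoM2YFP allele and no recombinase. SmoM2 is a constitutively active form of Smoothened, the transducer of Hedgehog signals. A group is 1 library, pooled from 2 to 3 embryos of that genotype, so there are no replicates, no difference below was tested, and every interval covers counting error only. When recombination was induced is not given in the sources used here.

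Keratins work as pairs, with an acidic type I protein bound to a basic type II protein. In skin, Krt5 and Krt14 fill the basal layer, Krt1 and Krt10 replace them as cells leave it, Krt8 and Krt18 belong to simple epithelia and to the early surface ectoderm, Krt17 is known from periderm and from hair placodes, and the hair keratins appear only once follicles build a shaft. At this stage the embryonic epidermis is still thin, with a basal layer under a flat periderm. Of the 53 genes, 28 are type I and 25 type II. In the GRCm38 annotation 27 type I genes lie on chromosome 11, while Krt18 lies among the 25 type II genes on chromosome 15.

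The mutant library held 11909 barcodes with 73809828 UMIs (molecules counted once each) and the control library 13566 barcodes with 109629368 UMIs. After filtering, 8521 mutant and 11553 control cells were kept, with medians of 6663 and 7444 UMIs. The libraries shared 48 barcodes, and none of these passed the epidermal gate in both. The genotype field of each library names the opposite group to its title. The groups follow the titles, and so do 2 genes outside the family: in dermal cells eYFP had 936 UMIs (29.0 CPM, UMIs scaled to a total of 1000000 in the set of cells) in the mutant and 26 (0.411 CPM) in the control, and Ptch1, a direct Hedgehog target, had 245.8 against 5.47 CPM. In the epidermal cells described next, eYFP had 5 UMIs in the mutant and 1 in the control.

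Epidermal cells were taken as all cells with at least 20 UMIs of Krt5, Krt14 and Krt15 together, which gave 985 mutant and 369 control cells (gated cells below), with medians of 8390 and 10851 UMIs. All 10 epidermal markers outside the family, such as Epcam and Trp63, reached 10 CPM in both libraries. As a check that uses no keratin, the cells of both libraries were clustered without any keratin gene, and the clusters with epidermal markers held 1390 mutant and 555 control cells (the epidermal class, an epidermal-like marker call). This class took in 97.4% of the mutant and 98.9% of the control gated cells. The gate passed through the middle of the class: a class cell had a median of 24 basal keratin UMIs in the mutant and 23 in the control, with 235 mutant and 99 control cells at 15 to 19 and 295 and 121 cells at 20 to 24. The 26 mutant and 4 control gated cells outside the class included 21 and 2 cells of the erythroid-like class. Hemoglobin and other erythroid markers accordingly summed to 6570 CPM in the mutant and 1516 CPM in the control gated cells, with 4 and 3 of 6 at 10 CPM or more. Their part in the differences below was not tested. The epidermal class leaves those cells out, and for most keratin levels values in it are given beside the gated ones. Doublets called by Scrublet, which held 87 mutant and 53 control cells over the gate, were left out.

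The 250 bases before the transcription start are shown for 4 keratins on which later results turn: Krt5 as the leading type II gene, Krt10 as the gene found in nearly every class, and Krt24 and Krt36 as genes met outside the epidermis. They are RefSeq sequences on GRCm38.p6, 5′ to 3′ along the minus strand, where all 4 genes lie, at chr15:101712906-101713155, chr11:99389365-99389614, chr11:99285263-99285512 and chr11:100105627-100105876. Capitals mark matches to the TATA-box string TATAAA, to an AP-1 string spelled TGANTCA, to the GC-box string GGGCGG, to a Gli-type string spelled GACCACCCA, and to the E-box string CAGCTG, all searched on both strands.
Krt5: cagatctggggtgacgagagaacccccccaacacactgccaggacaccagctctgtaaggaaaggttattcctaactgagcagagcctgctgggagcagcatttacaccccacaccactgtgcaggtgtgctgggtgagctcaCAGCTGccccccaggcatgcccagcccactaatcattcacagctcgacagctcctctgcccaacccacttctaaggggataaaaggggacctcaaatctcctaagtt
Krt10: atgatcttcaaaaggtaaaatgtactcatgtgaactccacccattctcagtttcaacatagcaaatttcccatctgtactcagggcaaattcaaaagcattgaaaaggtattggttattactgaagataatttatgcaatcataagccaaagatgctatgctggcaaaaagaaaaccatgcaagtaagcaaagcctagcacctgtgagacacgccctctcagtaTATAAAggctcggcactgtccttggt
Krt24: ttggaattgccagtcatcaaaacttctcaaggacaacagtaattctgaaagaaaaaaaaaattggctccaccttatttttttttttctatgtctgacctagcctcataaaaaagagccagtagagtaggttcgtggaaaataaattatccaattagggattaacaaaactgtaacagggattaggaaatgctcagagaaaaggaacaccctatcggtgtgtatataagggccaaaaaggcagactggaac
Krt36: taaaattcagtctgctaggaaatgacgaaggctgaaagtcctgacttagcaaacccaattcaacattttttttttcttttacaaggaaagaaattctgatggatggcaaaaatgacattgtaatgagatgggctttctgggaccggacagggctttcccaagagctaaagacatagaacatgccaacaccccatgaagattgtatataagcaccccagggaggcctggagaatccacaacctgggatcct
Krt10 held TATAAA from -26 to -21 relative to its start, and Krt5 held CAGCTG from -107 to -102. Krt24 and Krt36 held none of these 5 strings in this stretch. Over a window of 300 bases, 250 before and 50 after the start, 34 keratins had a RefSeq entry within 300 bases of the annotated start, and 19 of them (55.9%) held TATAAA on either strand, where 13.6% of all 32851 promoters did. In 13 keratins the string lay from -40 to -20. CAGCTG was held by 7 of the 34 (20.6%), against 16.3% of all promoters, and the Gli-type string by 0, against 0.253%. These are matches of letters and not measured binding sites.

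Most of the family was not detected, or barely. In all barcodes of both libraries 10 of the 53 genes had no UMI and 29 had fewer than 10, those 10 included. In the gated cells 25 genes had a UMI in the mutant and 17 in the control, and 7 genes reached 20 CPM in either library, 7 in the mutant and 5 in the control. The 15 hair shaft keratins had 6 UMIs in the mutant gated cells, from 3 genes, and 0 in the control. The 7 inner root sheath keratins had 4 UMIs in each library. In these 3′ libraries a UMI stands for a captured transcript end, so gene length does not enter the values, although capture may differ between genes.

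The basal keratins made up nearly all of the epidermal keratin message. Krt5, Krt14 and Krt15 gave 94.9% of the keratin UMIs in the mutant and 95% in the control. Since these genes set the gate, their levels in the gated cells are a description, and the class built without keratins is given beside them. Krt14, the main type I keratin of the basal layer (ENSMUSG00000045545, chromosome 11, 100203162 to 100207548, minus strand), stood at 1549 CPM in the mutant and 1458 CPM in the control, a ratio of 1.06 (95% interval 1.03 to 1.09). Krt15, a type I keratin of basal cells with progenitor character (ENSMUSG00000054146, chromosome 11, 100131758 to 100135928, minus strand), stood at 920 CPM in the mutant and 578 CPM in the control, a ratio of 1.59 (1.52 to 1.67). Krt5, the type II partner (ENSMUSG00000061527, chromosome 15, 101707070 to 101712898, minus strand), stood at 882 CPM in the mutant and 588 CPM in the control, a ratio of 1.5 (1.43 to 1.57). Krt14 thus led in both libraries and differed little, while Krt15 and Krt5 were higher in the mutant. In the epidermal class the ratios were 1.08 for Krt14, 1.73 for Krt15 and 1.5 for Krt5.

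The balance of types shifted with them. Type I keratins summed to 2595 CPM in the mutant and 2147 CPM in the control (ratio 1.21, 1.18 to 1.24), and type II keratins to 936 CPM in the mutant and 614 CPM in the control (ratio 1.53, 1.46 to 1.59). There were 2.77 type I UMIs for each type II UMI in the mutant and 3.50 in the control. Within the type I pair, Krt14 outnumbered Krt15 by 1.68 to 1 in the mutant and by 2.52 to 1 in the control. In the epidermal class the ratios were 1.24 for type I and 1.52 for type II, with 2.79 type I UMIs for each type II UMI in the mutant and 3.43 in the control. All keratins together made 0.353% of gated UMIs in the mutant (0.349% to 0.357%) and 0.276% in the control (0.271% to 0.281%), and 0.331% and 0.255% of the UMIs of the epidermal class.

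The suprabasal pair was present at a few percent of the basal level. Krt10, the type I keratin of differentiating cells (ENSMUSG00000019761, chromosome 11, 99385254 to 99389364, minus strand), had 537 UMIs and 61.0 CPM in the mutant gated cells and 227 UMIs and 52.6 CPM in the control (ratio 1.16, 0.99 to 1.36), and without the suprabasal-like cells described below the ratio was 0.83. Krt1, its type II partner (ENSMUSG00000046834, chromosome 15, 101845426 to 101850794, minus strand), had 207 UMIs and 23.5 CPM in the mutant and 51 UMIs and 11.8 CPM in the control (ratio 1.99, 1.46 to 2.76). The difference in Krt10 stayed within counting error, and that in Krt1 did not. Without the suprabasal-like cells, of which 49 mutant and 7 control ones passed the gate, the Krt1 ratio was 1.54. In the epidermal class the ratios were 1.16 for Krt10 (1.01 to 1.33) and 2.09 for Krt1 (1.61 to 2.74).

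Krt7, a type II keratin of simple and glandular epithelia (ENSMUSG00000023039, chromosome 15, 101411043 to 101430313, plus strand), had 26.3 CPM in the mutant and 12.8 CPM in the control (ratio 2.07, 1.53 to 2.83). With every cell thinned to 3000 UMIs, so that deep cells weigh no more than shallow ones, its ratio was 1.19, and in the epidermal class it was 1.65 (1.30 to 2.12). Krt17, the type I keratin of periderm, placodes and wounds (ENSMUSG00000035557, chromosome 11, 100256217 to 100261029, minus strand), had 353 UMIs and 40.1 CPM in the mutant and 221 UMIs and 51.2 CPM in the control (ratio 0.78, 0.66 to 0.93). Of the 353 mutant UMIs, 203 came from 2 cells that also held Krt8. Without cells holding a Krt8 UMI, Krt17 stood at 17.1 CPM in the mutant and 51.4 CPM in the control, 3.0-fold higher in the control. In the epidermal class the ratio was 0.54 (0.47 to 0.62), and at a gate of 50 UMIs, which left 40 mutant and 16 control cells, it was 4.64. So the Krt17 sum of the mutant was mostly the message of 2 cells, and the remaining cells lay below the control.

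The simple epithelial keratins were the most uneven of all. Together with Krt7 they summed to 51.6 CPM in the mutant and 18.5 CPM in the control gated cells (ratio 2.78, 2.19 to 3.57), and in the epidermal class to 49.6 and 25.6 CPM (ratio 1.93, 1.61 to 2.33). Krt19, which lacks the tail of other type I keratins, had 13.9 CPM in the mutant and 2.32 CPM in the control, and Krt18, the type I partner of Krt8, had 9.31 and 2.78 CPM. Krt8 had 15 UMIs in the mutant and 1 in the control. Without cells holding a Krt8 UMI, Krt19 stood at 7.19 CPM in the mutant and 2.32 CPM in the control, and Krt18 at 5.70 and 2.56 CPM. Krt14 and Krt17 each share 17.2% of the 31-base stretches in their last 500 transcribed bases with each other, Krt16 or Krt42, and Krt18 shares 10.4% with other genes, so a part of their UMIs may be uncertain.

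At a fold of 1.5 or more, 4 of the 7 measured keratins were higher in the mutant gated cells (Krt15, Krt5, Krt7 and Krt1), where 3.23% of all 5164 features at this level were, and 0 were lower, against 2.5% of all features. Krt5 sits at the threshold: with a trimmed mean of M values as the scale, which moves the log2 ratio of every gene by 0.04, its ratio was 1.46 and the count was 3. In the epidermal class the same 4 were higher (2.88% of all features) and Krt17 was lower (2.24%). In the epidermal class without suprabasal-like cells, Krt15 and Krt7 were higher (3.03% of all features) and Krt17 was lower (2.43%).

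**Figure D1:**
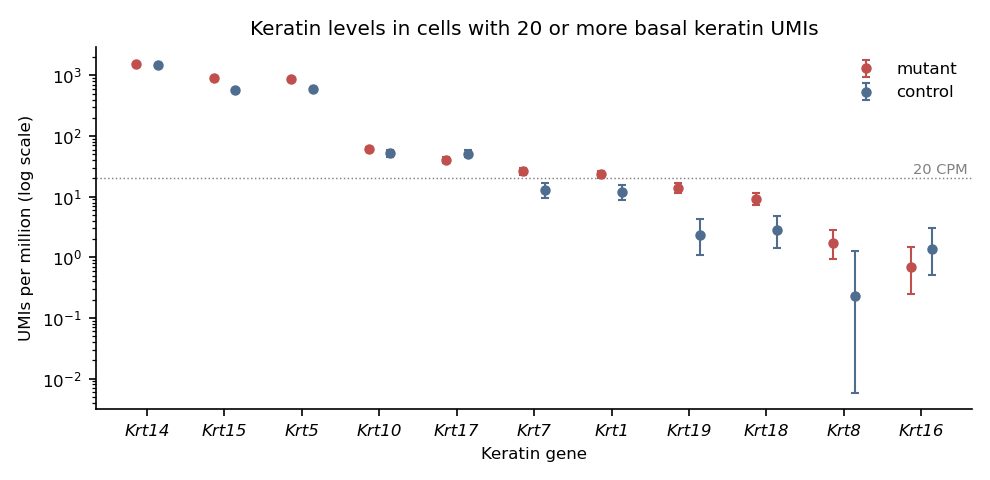
CPM on a log axis for the 11 keratins with at least 10 UMIs over both libraries and a UMI in each, in gated cells of the mutant (red, left) and the control (blue, right); bars are exact 95% Poisson intervals and the dotted line marks 20 CPM. Krt14 is nearly level, Krt15 and Krt5 are higher in the mutant, and levels drop to under 65 CPM from Krt10 on.

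The control epidermis held more placode marker message than the mutant, and also more Krt17 once the Krt8-positive cells were left out. The 9 placode markers summed to 63.4 CPM in the mutant and 348.5 CPM in the control gated cells. Dkk4, an early placode marker, had 1 UMI in the mutant and 200 in the control. Outside the suprabasal-like cells, Krt17 stood at 16.7 CPM in the 1309 mutant cells, of which 0 held a Dkk4 UMI. In the control it stood at 90.7 CPM (72.1 to 113) in the 81 cells with a Dkk4 UMI and at 45.6 CPM (39.7 to 52.2) in the 447 cells without. Krt15 went the other way within the control, at 328.5 CPM in cells with a Dkk4 UMI and 551 CPM in cells without, and so did Krt5, at 410.4 CPM with and 560 CPM without. Krt14 was alike, at 1334 CPM with and 1353 CPM without. Control cells without a Dkk4 UMI lay above the mutant in Krt17 and below it in Krt15 (895 CPM in the mutant) and Krt5 (791 CPM). Dkk4 was sparse, with 374 UMIs over all these control cells. Cells without a UMI may therefore include placode cells, and the split cannot set placode cells apart from the rest. Split by Lef1, a placode and progenitor gene, Krt17 differed little within a library. It stood at 19.4 CPM with and 15.6 CPM without a Lef1 UMI in the mutant (14.9 to 24.8 and 12.8 to 18.7), and at 54.5 CPM with and 46.6 CPM without in the control (47.8 to 61.7 and 34.6 to 61.5). The part of the placode cells in the difference between the libraries was not tested.

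Counted per cell, the basal keratins were found together in most gated cells, more often in the mutant. With every cell thinned to 3000 UMIs, Krt14 was found in 98.6% of gated cells in the mutant and 98.4% in the control, and Krt5 in 93.0% and 82.4%. Krt15 was found in 88.6% of mutant and 76.7% of control gated cells. All 3 were found in 81.8% of mutant and 64.2% of control cells. A mutant cell expressed a median of 3 keratins and at most 9, and a control cell a median of 3 and at most 6. Krt5 and Krt15 shared 82.8% of mutant and 65.6% of control cells. The gate itself asks for these genes, so the overlap is partly set by it. Cells were gated before thinning, and gated cells had medians of 8390 UMIs in the mutant and 10851 in the control. Thinning may therefore leave fewer basal keratin UMIs per gated cell in the control. Without the gate, all 3 were found in 76.9% of mutant and 54.2% of control epidermal class cells outside the suprabasal-like cluster described below.

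The suprabasal pair was found in a minority of these cells and seldom at depth. Krt10 was found in 13.8% of mutant and 17.1% of control gated cells after thinning, where dermal cells showed it in 7.98% and 9.45% (medians of 5877 and 6885 UMIs before thinning). Unthinned, these shares were 33.3% and 44.4% of gated cells and 15.5% and 20.3% of dermal cells. Dermal Krt10 stood above what stray epidermal RNA would leave, as given below, so dermal cells are not a blank for it. Krt1 was found in 6.50% of mutant and 3.52% of control gated cells, and in 0.667% and 1.32% of dermal cells. Both were found together in 15 mutant cells (1.52%) and 2 control cells (0.542%). In the mutant, Krt10 was found in 23.4% of the 64 cells with Krt1 and in 13.1% of those without. In the control it was found in 15.4% of the 13 cells with Krt1 and in 17.1% of those without. Cells with at least 3 UMIs of Krt1 or of Krt10 numbered 7 of 985 in the mutant (0.711%, 0.286% to 1.46%) and 0 of 369 in the control, which allows a share of up to 0.813%. Of dermal cells, 1 of 4798 in the mutant and 0 of 8456 in the control passed that mark. The difference in these strongly positive cells between the libraries lay within the counting intervals, and that in double-positive cells was not tested.

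Krt17 was found in 4.77% of mutant and 13.6% of control gated cells after thinning (12.6% and 39.3% before), and in 0.0625% and 0.0710% of dermal cells. Its wider spread over control cells stands beside the concentration of the mutant UMIs in a few cells. Krt7 was found in 6.6% and 4.88% of gated cells after thinning (19.1% and 12.2% before), and in 0.834% and 0.0946% of dermal cells.

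Over gated cells, Pearson's r of log-scaled counts was computed against 8290 genes outside the family, and genes among the 4 most similar are given for each keratin of at least 50 CPM. The points are cells of 1 library, share its depth, and carry sparse counts, so the values describe these cells only. Krt15 went with the chemokine gene Cxcl14 (r = 0.32 over 985 mutant cells and 0.37 over 369 control cells), and then with Fth1, Igfbp5 and Wnt6. Krt10 went with the glutathione transferase gene Mgst1 (0.44 and 0.15), and in the mutant also with Pycard (0.26 and 0.08) and S100a16 (0.27 and 0.06). Krt14 went with Ppia (0.26 and 0.28), Gapdh, Rpl11 and Prdx1, which are active in most cell types. Krt5 went with Gm42418 (0.18 and 0.19), and then with H19 (0.21 and 0.14), Mir205hg (0.09 and 0.23) and Mgst1 (0.24 and 0.07). Among the 4 keratins themselves r ranged between -0.20 for Krt10 with Krt15 in the mutant and 0.19 for Krt15 with Krt5 in the control, and the gate on the sum of the trio bears on these values.

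The genes that anchor keratin filaments were read from fixed lists. Of 13 desmosome genes 7 reached 20 CPM in the gated cells, with Jup, the plakoglobin gene (45.8 CPM in the mutant, 30.4 CPM in the control), and Pkp1, a plakophilin gene (22.5 and 10.9 CPM), higher by 1.5-fold, Pkp4 lower (24.2 and 44.7 CPM) and 4 within. As above, 3.23% of all features at this level were higher and 2.5% lower, which is the background for each list here. Their median log2 ratio was 0.37, where all features tested had 0.04. Of 8 hemidesmosome and linker genes 6 were measured, with Col17a1 higher (34.6 and 15.8 CPM), 5 within and a median of 0.40. Of 18 transcription factors known to act on keratin genes 9 were measured, with Klf5 higher (59.1 and 35.2 CPM), 8 within and a median of -0.20. Of 16 differentiation genes 2 were measured, Krtdap (47.7 and 28.5 CPM, higher) and Cstb (within), with a median of 0.40. Within the suprabasal-like cells described below, Krtdap stood at 1042 CPM in the mutant and 1118 CPM in the control. In the other epidermal cells it stood at 0.573 and 0.718 CPM, so it was higher in the mutant in neither set. The gate passed 49 of 81 mutant and 7 of 27 control suprabasal-like cells. The part of this in the gated Krtdap values was not tested. Of 15 other intermediate filament genes 4 were measured, with Vim (92.6 and 56.8 CPM) and the lamin gene Lmna (26.2 and 10.2 CPM) higher, 2 within and a median of 0.55. Vim is a mesenchymal filament gene, and the 9 dermal markers, of which 4 reached 10 CPM in each library, summed to 103 CPM in the mutant and 101 CPM in the control gated cells.

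Clustered again without keratins, the epidermal class gave a sub-cluster with suprabasal and periderm markers (suprabasal-like), with Krtdap, Mgst1 and Dmkn among its leading genes. It held 81 mutant cells (5.83% of the class, 4.65% to 7.19%) and 27 control cells (4.86%, 3.23% to 7.0%). Its 10 suprabasal markers summed to 1394 CPM in the mutant and 1428 CPM in the control, against 13.1 and 18.8 CPM in the other epidermal cells. Its 9 periderm markers, which share Grhl3 with that list, summed to 1778 and 2257 CPM, against 459 and 413 CPM. The sub-cluster therefore holds both kinds of cell, and its name covers both. Of these cells 49 mutant and 7 control ones passed the gate. The other sub-clusters separated mainly by library and cell cycle genes and are not compared. A sub-cluster with placode markers, led by Gadd45g and Dkk4, held 2 mutant and 246 control cells. Another with placode markers held 1 and 131, and an unnamed one with Dkk4 among its leading genes held 5 and 137. Most of the 528 control cells outside the suprabasal-like cluster thus lay in these. Their part in the epidermal differences was not tested. The dermal markers summed to 292 CPM in the mutant and 674 CPM in the control suprabasal-like cells. Their part in the differences between the libraries was not tested.

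Keratin sums differed between these cells and the rest, although for several genes the difference came from the 7 Krt8-positive cells described further on. In the mutant, Krt17 was 23.0-fold higher in suprabasal-like than in other epidermal cells (385 and 16.7 CPM), Krt19 14.4-fold (94.9 and 6.59 CPM), Krt10 8.36-fold (359 and 43.0 CPM), Krt18 8.16-fold (54.6 and 6.69 CPM) and Krt1 6.67-fold (129 and 19.4 CPM). Krt8, the simple epithelial type II keratin, had 21 UMIs in mutant suprabasal-like cells and 0 in the others. This was 105-fold higher against a floor of 3 UMIs over the group, with an exact 95% lower bound of 78.3-fold. Krt15 was the exception and was 2.08-fold lower (430 and 895 CPM). In the control, Krt19 was 13.6-fold higher (29.3 and 2.15 CPM), Krt18 12.3-fold (41.9 and 3.41 CPM), Krt17 10.4-fold (553 and 53.0 CPM), Krt7 8.01-fold (96.3 and 12.0 CPM) and Krt10 2.65-fold (134 and 50.6 CPM). Krt1 was 1.72-fold higher there, from 5 UMIs and with an interval of 0.54 to 4.20, while Krt15 was 3.51-fold lower (147 and 515 CPM). Krt14 was lower in these cells by less than 1.5-fold in both libraries, at 1243 and 1461 CPM in the mutant and 972 and 1350 CPM in the control. Of 10 measured keratins, 8 were higher and 1 lower by 1.5-fold in the mutant, where 12.6% of all features were higher and 11% lower. In the control 7 were higher and 1 lower, where 22.1% of all features were higher and 17% lower. Without the Krt8-positive cells, Krt17 stood at 69.0 CPM in the suprabasal-like cells of the mutant, still above the other epidermal cells, while Krt19 (4.60 CPM, 3 UMIs), Krt18 (0 UMIs) and Krt7 (15.3 CPM) were below them. In the control, Krt17 (264 CPM) and Krt7 (41.0 CPM) stayed above the other epidermal cells, and Krt19 and Krt18 were left with 1 and 4 UMIs. The counts of 8 and 7 therefore rest partly on these few cells. Type I keratins made 63.9% of keratin UMIs in the mutant and 67.4% in the control suprabasal-like cells, against 74.4% and 77.9% in the other epidermal cells.

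**Figure D2:**
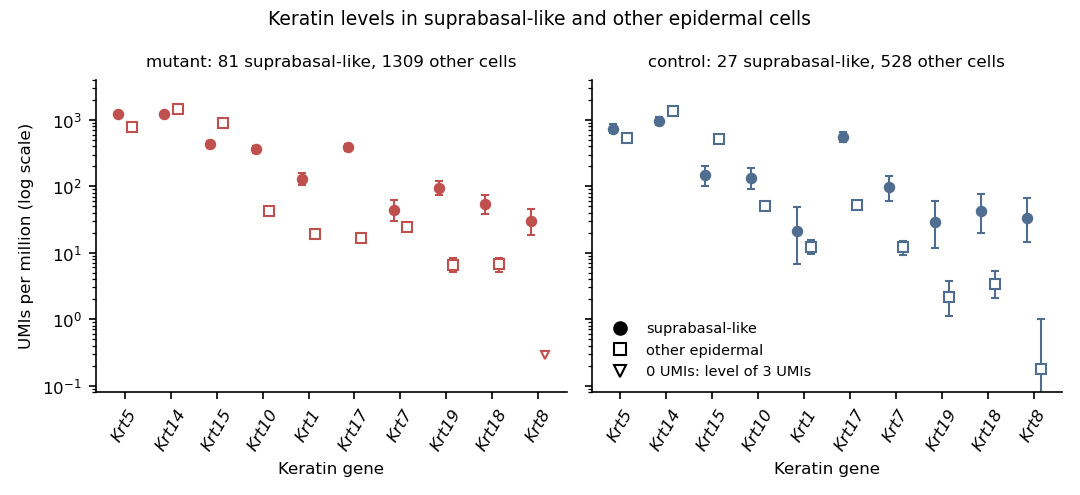
CPM on a log axis for 10 keratins in suprabasal-like (filled circles, left) and other epidermal cells (open squares, right) of the mutant (left panel) and the control (right panel); bars are exact 95% Poisson intervals, and the open triangle is the level of 3 UMIs for Krt8, which had none there. Krt15 alone is lower by more than 1.5-fold in suprabasal-like cells, and Krt17, Krt19, Krt18 and Krt8 stand far above the other epidermal cells in both panels. For Krt19 and Krt18, and for Krt17 in the mutant, this rests mostly on the 7 Krt8-positive cells, which hold the Krt8 UMIs by definition.

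Between the libraries, the suprabasal pair differed most within the suprabasal-like cells. Krt10 stood at 359 CPM in the mutant and 134 CPM in the control (250 and 32 UMIs; ratio 2.68, 1.85 to 4.0). Krt1 stood at 129 CPM in the mutant and 20.9 CPM in the control, from 90 and 5 UMIs (ratio 6.18, 2.55 to 19.5). In the mutant the UMIs of Krt10 were spread over 55 of 81 cells and those of Krt1 over 41, while in the control they lay in 12 and 5 of 27 cells. In the other epidermal cells Krt10 went slightly the other way, at 43.0 CPM in the mutant and 50.6 CPM in the control (ratio 0.85, 0.73 to 0.99). Krt15 was also higher in mutant suprabasal-like cells, at 430 CPM against 147 CPM in the control. In this small cluster 5 of 10 keratins were higher by 1.5-fold and 1 lower, where 17.2% and 16.5% of all features were.

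The simple epithelial keratins of this cluster came from very few cells. A Krt8 UMI was held by 3 mutant and 4 control suprabasal-like cells, a set chosen after its values were seen. The 3 mutant cells held 223 of the 268 Krt17 UMIs of the mutant cluster, 63 of 66 Krt19, 38 of 38 Krt18 and 8 of 8 Krt4 UMIs. The 4 control cells held 74 of 132 Krt17, 6 of 7 Krt19, 6 of 10 Krt18 and 14 of 23 Krt7 UMIs. The mutant cell with the most Krt8 had 115 Krt17, 51 Krt19, 28 Krt18, 13 Krt8 and 8 Krt4 UMIs beside 26 Krt5 and 0 Krt14 UMIs. In all, the 3 mutant cells had 19368, 3100 and 21107 UMIs. Of the dermal marker Col1a1 they held 7, 0 and 16 UMIs, where the whole mutant cluster held 27. The 4 control cells held 0 Col1a1 UMIs. The part of dermal message in these keratin sums was not tested. None of the 7 cells had a UMI of Krtdap, and Krt10 had 3 UMIs in the mutant cells and 0 in the control cells. Periderm markers reached 84, 16 and 110 UMIs in the mutant cells and 35, 8, 19 and 30 in the control cells. Suprabasal markers reached 8, 1 and 7 UMIs in the mutant cells and 5, 0, 2 and 2 in the control cells. These 7 cells thus carried Krt8, Krt17 and periderm markers together with Krt5. Each held fewer UMIs of the suprabasal markers than of the periderm markers.

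Without them, the suprabasal-like cells had Krt10 at 379 CPM in the mutant and 146 CPM in the control (ratio 2.60, 1.79 to 3.88) and Krt1 at 135 CPM in the mutant and 22.8 CPM in the control. Krt17 then stood at 69.0 CPM in the mutant and 264 CPM in the control, 3.83-fold higher in the control. Krt18 then had 0 UMIs in the mutant and 4 in the control. The higher Krt10 and Krt1 of the mutant cluster were thus nearly as large without these cells, while the mutant level of Krt17 rested mostly on them. The remaining cells still differed in Krt17, so leaving out Krt8-positive cells did not make the libraries alike. The differences in Krt10 and Krt1 therefore cannot be told apart from a different mix of suprabasal and periderm cells.

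**Figure D3:**
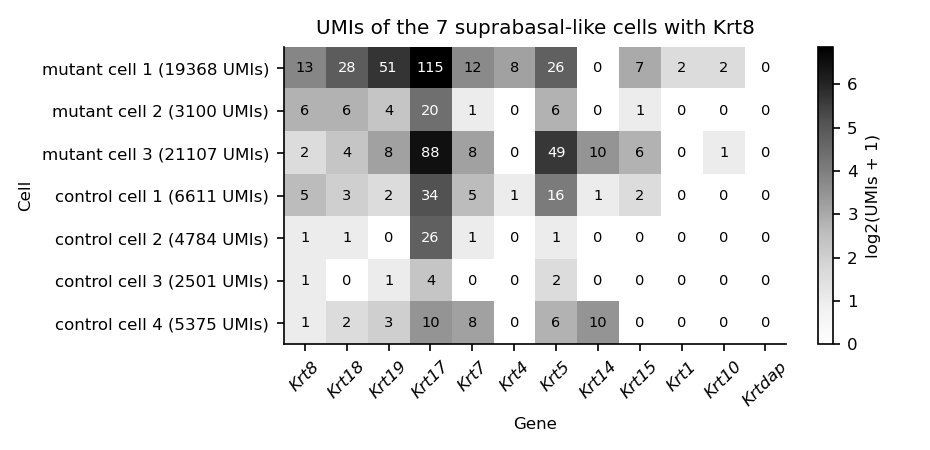
UMIs of 11 keratins and of Krtdap in each of the 7 suprabasal-like cells with a Krt8 UMI, 3 of the mutant (top) and 4 of the control, with each cell's total in its label; shade is log2(UMIs + 1). Krt17 is present in all 7 cells and is the highest keratin in 6 of them, and in the last it is level with Krt14; Krtdap is 0 throughout.

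Lists of related genes split the same 2 sets of cells. Of desmosome genes, 8 of 9 measured in the mutant and 9 of 10 in the control were higher by 1.5-fold in suprabasal-like than in other epidermal cells. Of hemidesmosome and linker genes, Plec and Ppl were higher in both libraries, and 5 of 7 in the mutant and 4 of 6 in the control were lower, among them Itga6 and Itgb4, the integrin of the basal attachment. Of keratin regulators, 11 of 15 were higher in the mutant and 11 of 16 in the control, and Trp63 and Tfap2b were lower in both. All measured differentiation genes were higher, 8 of 8 in the mutant and 5 of 5 in the control. Of all features, 12.6% were higher and 11% lower in the mutant, and 22.1% and 17% in the control. The cluster was built from these genes among others, so the counts describe it.

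Outside the epidermis, keratin message was measured against what stray epidermal RNA would leave. In dermal-like cells outside the gate, the basal trio stood at 11.0 CPM in the mutant (5147 cells) and 2.61 CPM in the control (8743 cells), which is 0.330% (0.296% to 0.366%) and 0.0995% (0.0849% to 0.116%) of its level in gated cells. In the erythroid-like cells it was 5.12% in the mutant and 3.32% in the control. Elsewhere it lay between 0.134% in muscle-like cells and 0.518% in mast and other blood cells of the mutant, and between 0.0424% in Schwann-like cells and 0.134% in muscle-like cells of the control. The mutant library had more epidermal cells, 16.3% of kept cells against 4.80% in the control. A single source of stray RNA would leave every epidermal keratin at about this percent of its epidermal level.

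Krt10 did not keep to that percent. It stood at 28.4 CPM in mutant and 32.4 CPM in control dermal cells, from 919 and 2048 UMIs, where the trio's percent would leave 6.50 and 3.31 UMIs. In muscle-like cells it stood at 31.9 CPM in the mutant and 28.4 CPM in the control, in mural-like cells at 26.1 and 28.9 CPM, and in Schwann-like cells at 29.5 and 35.6 CPM. It was lower in endothelial-like cells (10.2 CPM in the mutant, 10.9 CPM in the control), macrophage-like cells (9.06 and 8.57 CPM) and the cluster with mast and other blood markers, mast-like below (7.28 and 3.91 CPM). A rule of at least 10 CPM and 5 times the trio's percent was met by Krt10 in 7 classes and by Krt80 in mast-like cells, the same 8 pairs of gene and class in each library. Of all features at that level, 100% met the rule in dermal cells of both libraries, and at least 99% in every class, since most genes are not epidermal. The count of pairs therefore says nothing particular about keratins. The percent is set by Krt5, Krt14 and Krt15 themselves, so their own dermal UMIs (111, 142 and 104 in the mutant) cannot be read against it.

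Low as it was, this Krt10 level was 46.6% of the gated epidermal level in mutant and 61.5% in control dermal cells. Summed over all epidermal cells outside the suprabasal-like cluster, Krt10 stood at 43.0 CPM in the mutant and 50.6 CPM in the control, less than 2-fold above the dermal sums. Krt10 shared no 31-base stretch of its last 500 transcribed bases with another gene. An antisense gene, Gm11940, overlaps it by 558 bases and had 65 UMIs in the mutant and 72 in the control, beside 1990 and 3032 of Krt10 over the kept cells. Whether counting used strand is not given in the sources used here, so reads of this pair may not be separable.

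**Figure D4:**
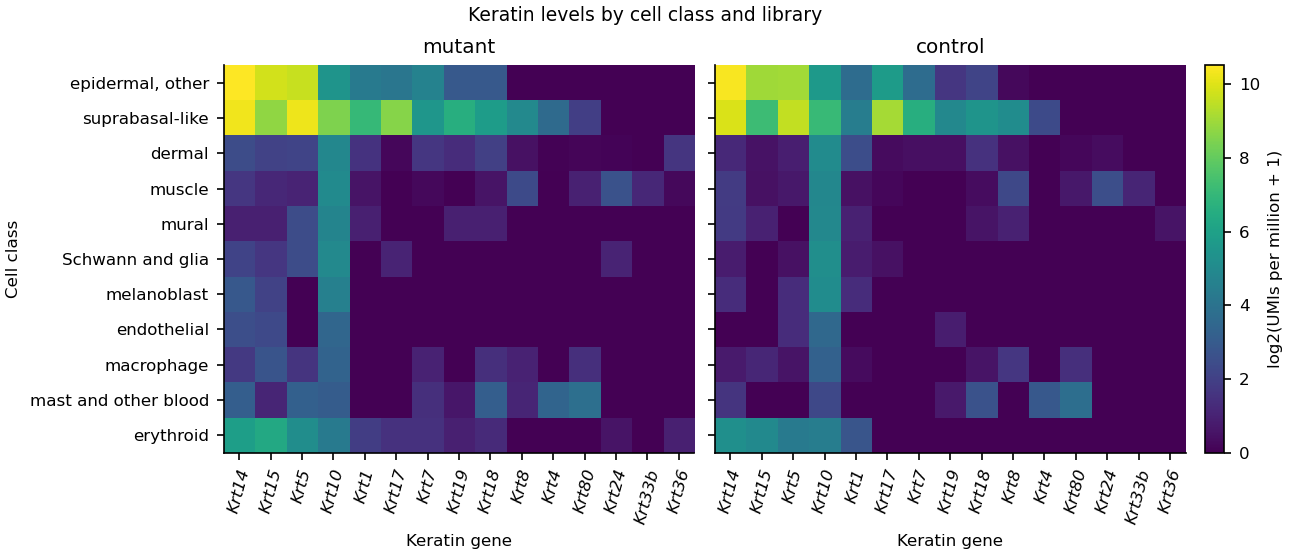
Colour shows log2(CPM + 1) for 15 keratins (columns) in 11 sets of cells (rows) of the mutant (left) and the control (right). The basal keratins are brightest in the upper 2 rows and weaker in erythroid cells. In mutant erythroid cells Krt15 (79.7 CPM), Krt14 (57.8 CPM) and Krt5 (34.2 CPM) still lie above Krt10 (18.7 CPM). Krt10 forms a column through every row, and Krt80, Krt24 and Krt36 each appear away from the epidermis.

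Krt80, a type II keratin of differentiated epithelia (ENSMUSG00000037185, chromosome 15, 101347444 to 101370162, minus strand), stood at 13.4 CPM in mutant and 13 CPM in control mast-like cells, with 24 UMIs in 17 of 172 cells and 20 UMIs in 17 of 114 cells, and had 1 UMI in mutant and 0 in control gated cells. An annotated antisense gene, Gm35853, lies across it and had 32 UMIs in the mutant and 24 in the control over the kept cells, beside 40 and 44 of Krt80. In muscle, 3 keratins chosen after their values were seen recurred at low levels in both libraries: Krt24 at 5.28 CPM in the mutant and 4.74 CPM in the control, Krt8 at 4.20 and 3.86 CPM, and Krt33b at 1.24 and 1.15 CPM. In the Myog-bearing muscle cluster of 200 mutant and 198 control cells they were higher, with Krt8 at 15.2 and 19.2 CPM, Krt24 at 8.2 and 9.02 CPM and Krt33b at 4.69 and 4.32 CPM. Krt24 and Krt33b had 0 UMIs in the gated cells of either library. Each of these values repeats between libraries that were made from separate embryos.

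In the dermis 3 further keratins, chosen after their values were seen, differed between the libraries. Krt36, a type I hair shaft keratin (ENSMUSG00000020916, chromosome 11, 100102007 to 100105626, minus strand), had 68 UMIs in 56 mutant dermal cells (2.10 CPM) and 0 among 63236098 UMIs of control dermal cells, at least 44.3-fold higher against a floor of 3 UMIs over the group. Of these UMIs 62 lay in a cluster of 2010 mutant cells led by the Hedgehog targets Hhip and Ptch1 (4.13 CPM, 3.16 to 5.29). Across mutant dermal cells it stood at 3.06 CPM in those with a Ptch1 UMI and at 0.499 CPM in those without. It had 0 UMIs in gated cells of both libraries. No 31-base stretch of its last 500 transcribed bases is shared with another gene.

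Krt1 went the other way, with 61 UMIs (1.89 CPM) in mutant and 292 UMIs (4.62 CPM) in control dermal cells (ratio 0.41, 0.30 to 0.54), where stray epidermal RNA would leave 2.50 and 0.744 UMIs. Krt10 was the only keratin of at least 20 CPM in dermal cells, and 0 of 1 keratin was called higher or lower there, where 4.22% and 3.97% of all features were. The highest dermal level of Krt1 in the control was 11.1 CPM (8.98 to 13.6) in a cluster led by Calb1, Nrgn and Crabp1, where 91 of 1249 cells held it. In the mutant it was 6.11 CPM (4.18 to 8.63) in a cluster led by Gal, Cdkn1a and Foxd1, where 32 of 1029 cells held it. The Hhip cluster of the mutant had 0.466 CPM. Krt7 had 71 UMIs (2.20 CPM) in mutant and 22 UMIs (0.348 CPM) in control dermal cells (ratio 6.31, 3.87 to 10.7), and 56 of the 71 lay in 2 mutant clusters led by Gal and Foxd1, at 6.88 and 4.63 CPM. Since the libraries occupy largely separate dermal clusters, these differences cannot be told apart from differences in which cells are present.

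**Figure D5:**
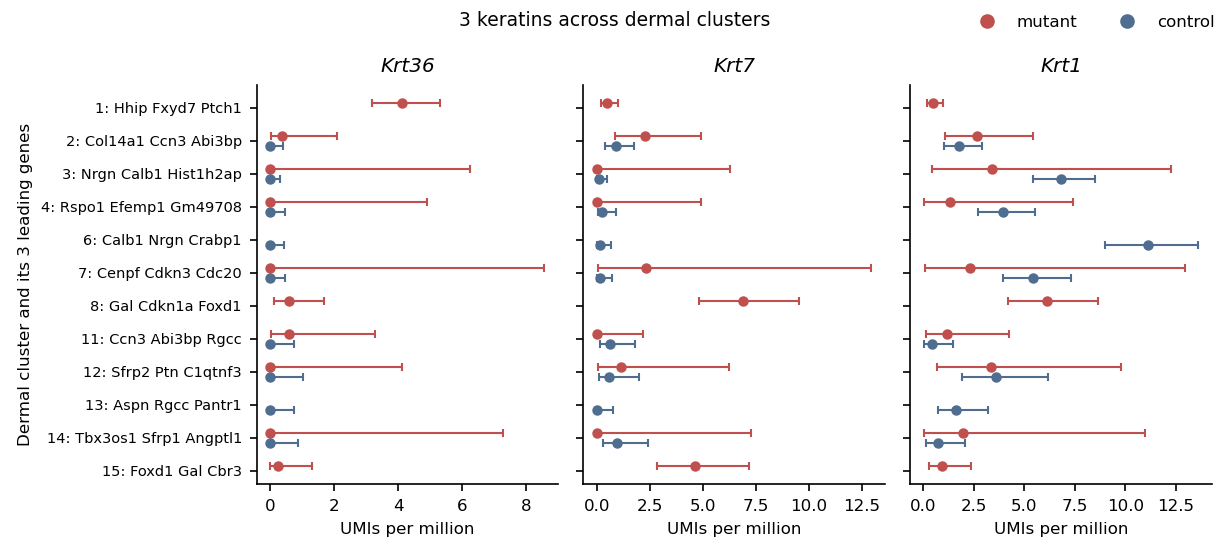
CPM of Krt36, Krt7 and Krt1 (panels) in each dermal cluster with at least 50 cells of a library, for the mutant (red, upper point) and the control (blue, lower point); bars are exact 95% Poisson intervals. Krt36 is raised in the Hhip cluster alone among clusters of over 500 mutant cells, Krt7 is highest in the 2 Gal and Foxd1 clusters, and Krt1 in the Calb1 and Nrgn clusters of the control and in the Gal cluster of the mutant.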

How the data were processed

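Skin of 1 mutant and 1 control pool of embryos was profiled by single-cell RNA sequencing with the 10x 3′ v3.1 kit, and per the labels' protocols the cells were freed with 0.25% trypsin for 20 minutes at 37 °C, sorted with DAPI, and both libraries were prepared at the same time and shared a sequencing lane. The deposited values are raw UMI counts per gene and barcode, made with Cell Ranger 5.0.1 on mm10 per the submitters' processing notes. Barcodes with at least 1000 genes and at most 10% mitochondrial UMIs were kept (8783 mutant and 12120 control), and doublets called by Scrublet per library (262 and 567, 2.98% and 4.68%) were left out. Both libraries were clustered together in scanpy 1.11.5 with leidenalg 0.10.2 on 2000 variable genes without keratins (30 components, 15 neighbours, resolution 1.0, and 0.8 within the epidermis). Clusters were named from fixed markers outside the family. The profile each cluster was compared with, the mean of classes at equal weight, was set after the clusters were first seen.

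Counts were summed per library and set of cells and given as CPM. Intervals are exact at 95% (Poisson for levels, Clopper-Pearson for shares, conditional binomial for ratios), and a count of 0 is bounded by 3 counts. PCR duplicates are collapsed by UMI, and intervals cover counting error only. Shares of cells were thinned to 3000 UMIs by 1 random draw. A keratin was called higher or lower at 1.5-fold with at least 20 CPM in either library. The summing and calling were tested on simulated data. Keratins of at least 20 CPM in gated cells were named with both values, other keratins where a class outside the epidermis passed the background rule or where stated as chosen after their values were seen, and list members where they passed 1.5-fold. The keratins and lists were chosen with earlier results of these data known. Alternatives changed the gate, filters, doublets, scale, minimum and clusters. With 1 library a group, no test was made. For Krt10, 1 of the 4 most similar genes is not reported here.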

Additional observations from a re-analysis of the deposited data

Results flagged for a closer look

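The ratio of the mutant to the control pointed in opposite directions in different sets of cells for 3 keratins, with each counting interval lying off 1, and none of these differences between sets was tested. For Krt10 it was 2.68 in suprabasal-like cells, 0.85 in the other epidermal cells and 0.88 in dermal cells. For Krt7 it was 2.03 in the other epidermal cells and 6.31 in dermal cells, against 0.46 in suprabasal-like cells, where 21 of the 31 mutant UMIs lay in 3 cells and 14 of the 23 control UMIs in 4. Without these Krt8-positive cells the suprabasal-like ratio of Krt7 was 0.37 (0.14 to 1.04), whose interval takes in 1. For Krt1 it was 1.59 in the other epidermal cells and 6.18 in suprabasal-like cells, against 0.41 in dermal cells. The control value of Krt1 in suprabasal-like cells rests on 5 UMIs.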

How the results depend on the processing

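Of 96 alternative values of the main results, 63 stayed the same and 33 moved. Of 98 alternative ratios of named keratins, 79 stayed and 19 moved. Some of these values could not move. Keeping every deposited barcode added 0 cells over the gate in either library, and a minimum of 10 CPM does not enter a ratio. The counts of unchanged values are therefore not a measure of robustness. The keratin share of epidermal UMIs stayed higher in the mutant throughout: 0.334% in the mutant and 0.254% in the control with doublets kept, 0.326% and 0.257% at a gate of 10 UMIs, 0.448% and 0.372% at a gate of 50 (40 and 16 cells), 0.331% and 0.255% in the epidermal clusters, 0.327% and 0.254% in those clusters without suprabasal-like cells, and in the mutant 0.359% over gated class cells alone and 0.347% without suprabasal-like cells. The number of keratins called higher was 2 at a gate of 50 (Krt19 and Krt17), 2 without suprabasal-like cells over the gate or in the clusters (Krt15 and Krt7), and 7 with no minimum and 1 CPM added; it was 3 on the scale of trimmed means. The number called lower was 1 at a gate of 10, in the clusters, after thinning, and without suprabasal-like or Krt8-positive cells (Krt17), and 1 with no minimum (Krt71). The Krt17 ratio ran from 0.296 without suprabasal-like cells to 4.64 at a gate of 50, so Krt17 was called lower under some alternatives and higher under that one. The Krt10 ratio fell under 1 at a gate of 50 (0.890), after thinning (0.865) and without suprabasal-like cells (0.832 over the gate). Cells with 3 UMIs of Krt1 or Krt10 made up 0% of mutant and 6.25% of control cells at a gate of 50, 18.8% and 20.1% with 1 UMI in place of 3, and in the mutant 1.65% thinned to 5000 UMIs, 0.214% without suprabasal-like cells and 0% in the clusters without them. The dermal background in the mutant was 0.249% with doublets kept and 0.375% with gated cells kept, and 5 pairs stood above background in the mutant at 20 CPM. The alternatives without suprabasal-like or Krt8-positive cells and with gated class cells alone were chosen after seeing the data. The cause of these moves was not tested. No paired analysis was possible because each group has 1 library and no test was run. Depth limits the suprabasal-like control values most, with 27 cells.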
